A study of Mus musculus with 6 samples.

Results

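The genes described here are 44 genes of DNA replication and the S phase of the cell cycle, taken from origin licensing to the rebuilding of chromatin, and followed on 6 arrays of macrophages sorted from rejecting and treated mouse heart grafts. They were chosen by name, as components of the replication machinery, but with earlier results of these data known. Of the 44, 43 were measured on a probe set annotated to that gene alone, out of 22180 named genes. The other member, Rfc4, lay only on a probe set shared with another gene and is not analysed here. Hearts of BALB/c mice had been placed in fully mismatched C57BL/6 recipients, and graft-infiltrating macrophages were sorted by flow cytometry on day 6. In 3 samples the recipients had been given mTORi-HDL, a high-density lipoprotein nanoparticle that carries an inhibitor of the kinase mTOR, at 5 mg/kg on days 0, 2 and 5. In the other 3 samples the recipients were untreated and rejected the graft. Both groups share the donor and recipient strains, and no group given the lipoprotein without the inhibitor is analysed here, so the inhibitor and its carrier cannot be told apart. The sources used here do not give the sort markers, the animals' ages or whether a sample came from 1 recipient or several, so p-values measure the spread between these samples, which may be technical.

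Replication begins in G1, when the origin recognition complex with Cdc6 and Cdt1 loads the Mcm helicase onto DNA as inactive rings. In S phase Cdc45 and the GINS complex join the rings to form the active CMG helicase, polymerases copy the unwound strands on the Pcna clamp, and chromatin assembly factors wrap the new DNA in nucleosomes. Most of these genes are transcribed in late G1 and S phase under E2F transcription factors, so their messenger RNA is a common measure of how many cells in a sample are cycling. Resident macrophages and activated T cells can divide in tissue, and mTOR signalling supports the growth that precedes division. In bulk samples such as these, fewer cells of a type and less RNA per cell cannot be told apart.

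Among the treated arrays, mTORi-HDL 1 differed from the other 5 in its range of values, which bears on each value below. Its log2 values correlated with those of the other arrays at r = 0.708 to 0.741 across probe sets, while correlations among the remaining 5 were 0.892 or higher. Its slope on the mean of the others was 0.641, so bright genes read lower on it and dim genes higher, and the median gene read 0.27 above the untreated mean. In the mean over all 6 arrays, all measured members other than Gins1 (42 of 43) were brighter than the median gene, at 4.18. Some members read under that level on treated arrays. Examples are Cdc45 at 4.14 on mTORi-HDL 1, Mcm10 at 3.65 and 3.85 on mTORi-HDL 2 and 3, and Chaf1a at 3.69 and 3.67 on mTORi-HDL 1 and 3. Results are therefore given with and without this array. The 6 arrays set the precision, since array values have no read depth.

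The median replication gene had a lower mean in the treated samples at each step of the process. Of the 43 measured members 41 had a lower mean after treatment, against 41.8% of all named genes. The median log2 fold change (treated minus untreated) was -0.89 over the members and 0.08 over all named genes. Over the 11090 genes brighter than the median gene it was -0.12. Top2a had the widest gap, at 7.44 times lower on the geometric mean, followed by Mcm4 at 4.77, Rrm1 at 4.08 and Rrm2 at 3.53 times lower. This order rested on the array mTORi-HDL 1, without which Rrm2 led at 4.58, followed by Cdc45 and Top2a at 3.10 each. After them came Mcm4 at 2.87, Uhrf1 at 2.64, Chaf1a at 2.62 and Rrm1 at 2.42 times lower. Gins3 and Pold1 were the 2 members with a higher mean.

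No member passed the test over all genes. In limma's comparison an adjusted p under 0.05 was reached by 0 of the 43 members and by 0.00% of the 22180 genes. The smallest adjusted p among the members was 0.468 for Cdc45 (limma, Benjamini-Hochberg over all genes), which ranked 14 among all genes by p, and it was 0.839 for Pola1, 0.841 for Mcm4 and 0.89 to 0.982 for the rest. At an unadjusted p under 0.05 there were 19 lower members and 0 higher ones, where 3.07% of all genes were lower and 1.57% higher by that measure. All 3 treated arrays lay below all 3 untreated arrays for 25 members, against 5.53% of all genes, and above them for 0 members, against 5.37%. The number of members lower with an unadjusted p under 0.05 was 11 without untreated 3, where the share of all genes was 1.93%. An exact permutation test of 3 against 3 samples cannot give a two-sided p under 0.10 for any gene.

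The shift was present on each treated array. The median member lay 1.59 below its untreated mean on mTORi-HDL 1, 0.73 below on mTORi-HDL 2 and 0.67 below on mTORi-HDL 3, while the untreated arrays lay between -0.20 and 0.12. On mTORi-HDL 1 there were 38 members below all 3 untreated arrays, where 27.3% of all genes were. Bright genes read lower on this array, and that share is not matched to the members in brightness. On mTORi-HDL 2 there were 34 (all genes 27.6%) and on mTORi-HDL 3 there were 30 (all genes 26.8%). The odd array was the lowest of the treated arrays for 27 of the 43 members, and for 16 it lay more than 1 log2 unit under both of the others. Its part in the size of the differences is seen from leaving it out. The median fold change was then -0.69, with 39 members lower (all genes 53.4%) and 4 higher, which were Gins3, Rfc2, Prim2 and Pold1. There were 19 members lower with an unadjusted p under 0.05 (all genes 3.51%) and 1, Gins3, higher (all genes 3.47%), and 17 of the 19 were also among those found with all arrays. With 2 treated arrays left, they lay below all untreated arrays for 26 members (all genes 12.5%) and above them for Gins3 (all genes 9.75%). The 25 members above were bound to be among the 26, since leaving out an array cannot make separate groups overlap. After cyclic loess normalization of the 6 arrays, which removes trends with brightness, the members' median was -0.71. By that measure 17 members were lower with an unadjusted p under 0.05 (all genes 3.10%), and 18 of the 25 kept groups that did not overlap (all genes 5.76%).

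**Figure D1:**
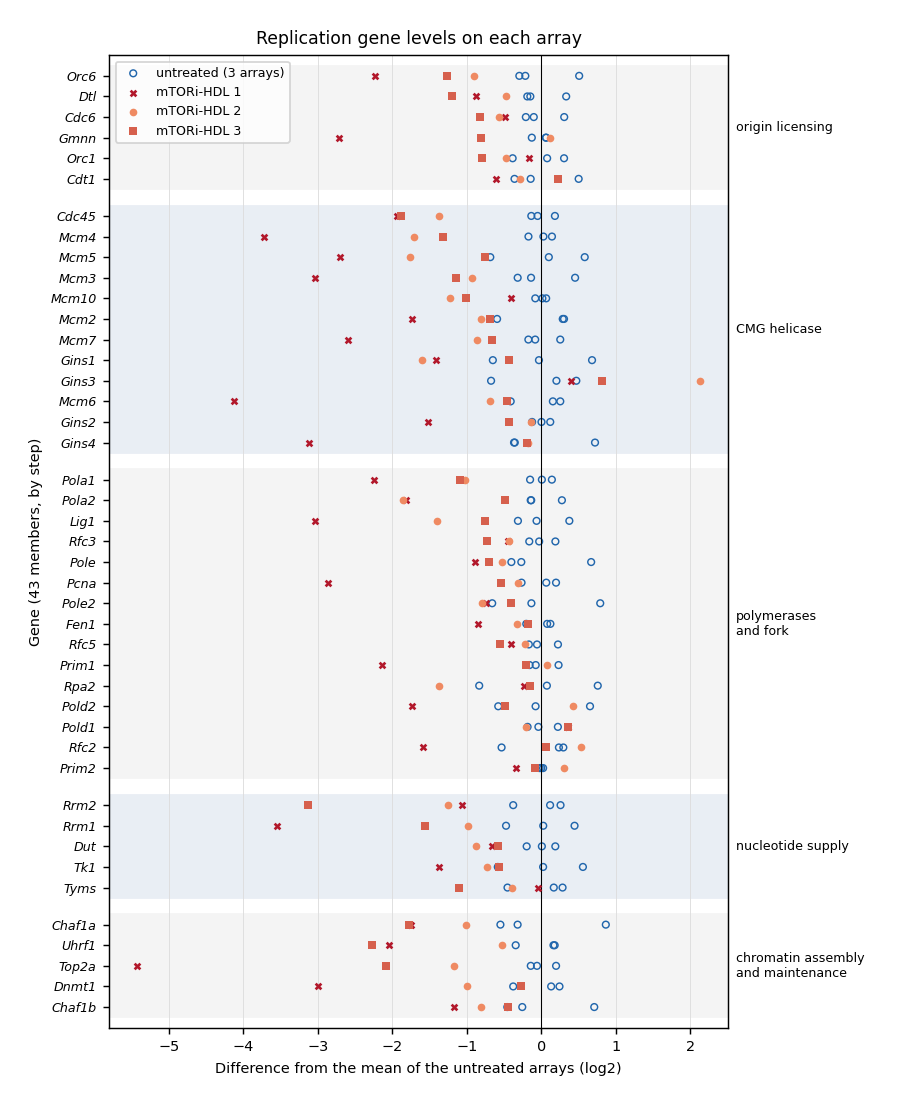
Level of each of the 43 measured replication genes on each array, as the log2 difference from the mean of the 3 untreated arrays (x axis), with genes grouped by step and ordered by p within a step (y axis). Open circles are untreated arrays and filled symbols the treated arrays, and the treated symbols lie to the left of the circles for most genes, farthest for Top2a on mTORi-HDL 1.

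E2F letters were in the start windows of some members and not of others. The genes were chosen by name and not by these letters. Most are known to be transcribed under E2F factors, so the members' share is not independent of that choice. RefSeq start windows of build GRCm38.p6, from 250 bases before to 50 bases after a transcription start, were on hand for 35 of the 43 measured members and for 16990 of the named genes. The E2F letters searched were TTTCCCGC, TTTCGCGC, TTTGCCGC and TTTGGCGC, on either strand, and sites may overlap. At least 1 of a gene's windows held them for 16 of the 35 members (45.7%), against 3.26% of all named genes. With the first T left off, so that 7 letters were searched, the shares were 65.7% and 13.7%. The CCAAT letters of NF-Y were in 65.7% of the members and 41.6% of all genes, and in each of the 8 helicase members with a window. The letters TTTGAA of the cell cycle homology region (CHR), known from genes of mitosis, were in 20.0% of the members and 17.8% of all genes, against 71.4% of 21 mitosis genes with a window. A match is a description of the letters and not a measured site.

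A window can belong to an alternative start within the gene, and for 20 of the members' 43 windows the bases before the start lay partly or wholly inside the gene's RefSeq span. The 250 bases before the start are printed 5′ to 3′ on the gene's own strand, with the E2F letters in capitals, for the 4 members in which that stretch lay outside the span and held a whole E2F site, and for Cdc45. Mcm6 has overlapping sites on opposite strands, Dtl and Rfc3 have a site next to the start, and Gins3 had the largest upward change of the members over all arrays. Cdc45, the member with the smallest p, has none of these letters in this window.
Mcm6 (chr1:128359706-128359955, minus strand): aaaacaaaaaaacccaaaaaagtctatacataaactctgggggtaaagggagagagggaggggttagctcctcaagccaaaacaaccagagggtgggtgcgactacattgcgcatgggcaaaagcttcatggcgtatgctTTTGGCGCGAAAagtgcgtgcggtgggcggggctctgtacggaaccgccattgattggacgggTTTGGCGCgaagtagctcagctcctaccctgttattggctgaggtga
Dtl (chr1:191575545-191575794, minus strand): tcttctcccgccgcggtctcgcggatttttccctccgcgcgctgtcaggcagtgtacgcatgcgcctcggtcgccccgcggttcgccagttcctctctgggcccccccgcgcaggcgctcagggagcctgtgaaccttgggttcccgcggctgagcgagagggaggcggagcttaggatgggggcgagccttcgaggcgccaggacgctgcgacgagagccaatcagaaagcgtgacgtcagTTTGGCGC
Rfc3 (chr5:151651209-151651458, minus strand): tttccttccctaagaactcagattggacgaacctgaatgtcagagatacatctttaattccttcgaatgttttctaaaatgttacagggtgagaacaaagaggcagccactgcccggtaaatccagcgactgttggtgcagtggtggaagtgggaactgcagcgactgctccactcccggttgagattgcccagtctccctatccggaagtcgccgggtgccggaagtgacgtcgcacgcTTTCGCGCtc
Gins3 (chr8:95633309-95633558, plus strand): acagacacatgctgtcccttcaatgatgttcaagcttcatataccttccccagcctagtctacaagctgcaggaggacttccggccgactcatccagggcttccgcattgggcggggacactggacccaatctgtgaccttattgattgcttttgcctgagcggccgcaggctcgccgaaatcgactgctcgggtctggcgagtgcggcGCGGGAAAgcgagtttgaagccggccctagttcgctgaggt
Cdc45 (chr16:18811973-18812222, minus strand): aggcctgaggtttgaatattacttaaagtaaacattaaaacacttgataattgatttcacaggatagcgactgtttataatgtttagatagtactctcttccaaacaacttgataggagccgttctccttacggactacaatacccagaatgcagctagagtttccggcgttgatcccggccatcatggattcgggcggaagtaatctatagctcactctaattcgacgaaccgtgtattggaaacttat

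In Mcm6 the overlapping sites begin 110 and 106 bases before the start, and another begins 47 bases before it. The sites begin 8 bases before the start in Dtl, 10 in Rfc3 and 41 in Gins3. The 16 members with E2F letters had a median log2 fold change of -1.11 and the 19 with a window but no such letters had -0.89, and without mTORi-HDL 1 the order was turned, at -0.67 and -0.75. The difference was not tested. By step, the letters were in the windows of 4 of 5 licensing genes, 5 of 8 helicase genes, 5 of 12 polymerase and fork genes, 0 of 5 nucleotide genes and 2 of 5 chromatin genes.

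**Figure D2:**
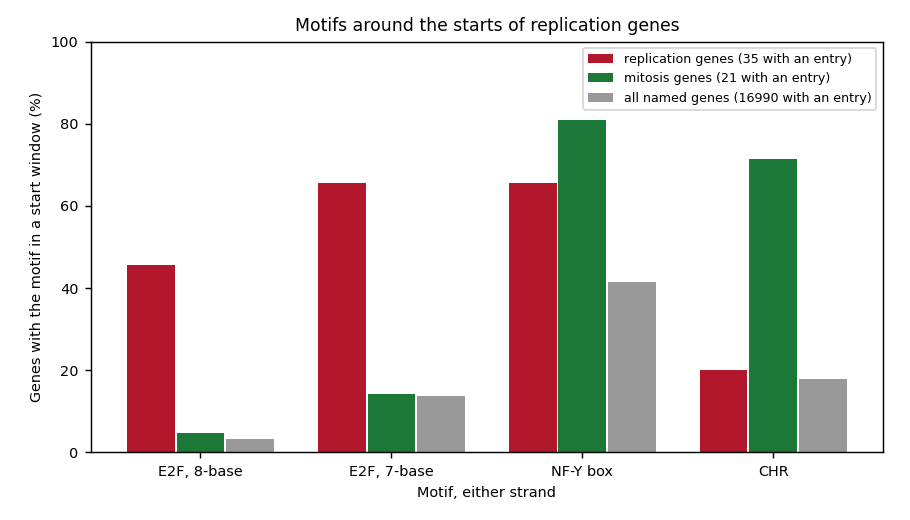
Share of genes (y axis, %) with a motif in at least 1 RefSeq start window, for 35 replication genes, 21 mitosis genes and 16990 named genes that have a window. The 8-base E2F motif was in 45.7% of the replication genes and 3.26% of all genes, while the CHR was in 71.4% of the mitosis genes and 20.0% of the replication genes.

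Origin licensing had a median log2 fold change of -0.74, with all 6 members lower in mean (all genes 41.8%). An unadjusted p under 0.05 was reached by 2 (all genes 3.07% lower), and 3 had no overlap between the groups (all genes 5.53% lower). Orc6, the smallest subunit of the origin recognition complex, had log2 levels of 5.45, 6.78 and 6.42 on treated arrays 1 to 3 and of 7.39, 7.47 and 8.19 on untreated arrays 1 to 3. Each treated array lay below each untreated array, with a log2 fold change of -1.47 ± 0.42 (SE; limma, unadjusted p = 0.00912, adjusted p = 0.89). Orc1, an ATPase subunit of that complex, read 4.80, 4.49 and 4.16 after treatment and 5.04, 5.27 and 4.58 without, and here the groups overlapped through mTORi-HDL 1 and untreated 3. Its log2 fold change was -0.48 ± 0.31, and -0.64 ± 0.28 without mTORi-HDL 1.

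Cdc6, the ATPase that recruits the helicase to the origin, had a narrow spread in treated samples. It read 4.66, 4.58 and 4.33 there and 5.05, 4.94 and 5.45 in untreated samples, a log2 fold change of -0.62 ± 0.27 (SE) with no overlap. Cdt1, its partner in loading, had a log2 fold change of -0.22 ± 0.35, and of -0.03 ± 0.33 without mTORi-HDL 1, with treated values of 4.53 to 5.37 and untreated values of 4.78 to 5.64. Cdt1 activity is limited after origin firing by 2 of the other members. Gmnn, geminin, which binds and blocks Cdt1, read 4.19, 7.02 and 6.09 in treated and 6.78, 6.97 and 6.96 in untreated samples, so mTORi-HDL 2 lay above all untreated arrays. Dtl, the adaptor of the ubiquitin ligase that destroys Cdt1 at the replication clamp, read 4.43, 4.84 and 4.11 against 5.65, 5.12 and 5.16, without overlap. Its log2 fold change of -0.85 ± 0.31 was nearly the same without mTORi-HDL 1 (-0.84 ± 0.31).

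The CMG helicase had a median log2 fold change of -1.27, with 11 of 12 members lower (all genes 41.8%). Of these, 8 had an unadjusted p under 0.05 (all genes 3.07%) and 9 had no overlap (all genes 5.53%). Cdc45, which bridges the Mcm ring and GINS, was the member with the smallest p. It read 4.14, 4.71 and 4.19 in treated and 6.26, 5.95 and 6.03 in untreated samples, with means of 4.35 ± 0.31 and 6.08 ± 0.16 (SD, n = 3 each). The gap between the highest treated and the lowest untreated array was wider than the spread within either group. The log2 fold change of -1.74 ± 0.28 (SE; limma, unadjusted p = 0.000341, adjusted p = 0.468) corresponds to a level 3.33 times lower, and it was -1.63 ± 0.25 without mTORi-HDL 1 (adjusted p = 0.172). With cyclic loess it was -1.60.

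The 6 subunits of the Mcm ring were all lower in mean and none overlapped between groups, although Mcm2, Mcm5 and Mcm6 did after cyclic loess. Mcm4 read 4.16, 6.17 and 6.55 in treated and 8.02, 7.71 and 7.91 in untreated samples. Mcm5 read 4.64, 5.58 and 6.59 against 7.45, 6.66 and 7.93. Mcm3 read 4.61, 6.72 and 6.50 against 7.51, 7.33 and 8.10. In all 3 genes mTORi-HDL 1 was the lowest array, and the other treated arrays stood between it and the untreated ones. Their log2 fold changes were -2.25 ± 0.60, -1.74 ± 0.55 and -1.70 ± 0.57 (SE), and without mTORi-HDL 1 they were -1.52 ± 0.24, -1.26 ± 0.45 and -1.04 ± 0.29. Mcm4 then had an unadjusted p of 0.000436 and an adjusted p of 0.172 in limma's test. Mcm6, Mcm7 and Mcm2 had log2 fold changes of -1.76, -1.38 and -1.08 over all arrays and of -0.58, -0.77 and -0.75 without mTORi-HDL 1. Mcm6 depended most on that array, which read 4.58 where the other treated arrays read 8.01 and 8.24 and the lowest untreated array 8.29.

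Mcm10, which helps the assembled helicase to start, differed from the ring in which array was lowest. It read 4.46, 3.65 and 3.85 in treated samples, highest on mTORi-HDL 1, against 4.93, 4.79 and 4.88 in untreated samples. Its log2 fold change was -0.88 ± 0.30 over all arrays and -1.12 ± 0.21 (SE) without mTORi-HDL 1, where the unadjusted p was 0.00128 and the adjusted p 0.254 (limma).

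The GINS subunits gave values of both signs. Gins1 had a log2 fold change of -1.15 ± 0.45 (SE), with treated values of 2.71 to 3.88 and untreated values of 3.67 to 5.00 that overlapped. Gins2 and Gins4 had -0.70 and -1.16 over all arrays, but -0.28 and -0.18 without mTORi-HDL 1. Gins3 went the other way, at 4.62, 6.36 and 5.04 in treated and 4.43, 3.56 and 4.70 in untreated samples. The groups overlapped through mTORi-HDL 1 and untreated 3, and the log2 fold change was 1.11 ± 0.52 (SE; limma, unadjusted p = 0.0664, adjusted p = 0.89). Without mTORi-HDL 1 it was 1.47 ± 0.49 with no overlap (adjusted p = 0.574). Each gene was measured by its own probe set, and whether the 4 subunits differ in their response was not tested.

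Polymerases and the replication fork had a median log2 fold change of -0.60, with 14 of 15 measured members lower (all genes 41.8%). Of these, 7 had no overlap (all genes 5.53%) and 3 had an unadjusted p under 0.05 (all genes 3.07%). Those 3 were Pola1, Pola2 and Lig1. Pola1, the catalytic subunit of polymerase alpha that extends each primer, read 4.13, 5.35 and 5.28 in treated and 6.51, 6.38 and 6.22 in untreated samples. Its log2 fold change was -1.45 ± 0.38 (SE; limma, unadjusted p = 0.00568, adjusted p = 0.839), and -1.06 ± 0.21 without mTORi-HDL 1. Pola2, its accessory subunit, read 3.67, 3.64 and 5.00 against 5.35, 5.36 and 5.77, a log2 fold change of -1.39 ± 0.42. Both genes were lower on each treated array than on any untreated array.

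The primase subunits, which travel in the same complex and lay down the RNA primer, gave other values. Prim2 read 4.71, 5.36 and 4.97 in treated and 5.03, 5.05 and 5.08 in untreated samples, a log2 fold change of -0.04 ± 0.27 (SE). Without mTORi-HDL 1 it was 0.11 ± 0.22, and with cyclic loess 0.03, so its sign was not settled. Prim1 had -0.76 ± 0.57 over all arrays and -0.07 ± 0.24 without mTORi-HDL 1. The treated values of both genes overlapped with the untreated ones.

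Lig1, the ligase that seals Okazaki fragments, read 5.21, 6.84 and 7.49 in treated and 8.18, 8.62 and 7.93 in untreated samples, a log2 fold change of -1.73 ± 0.57 (SE) over all arrays and -1.08 ± 0.31 without mTORi-HDL 1. Pcna, the sliding clamp, ranged from 8.06 to 10.62 in treated and from 10.66 to 11.13 in untreated samples. The groups did not overlap, by a margin narrower than the spread within either, and the log2 fold change was -1.24 ± 0.65, or -0.43 ± 0.24 without mTORi-HDL 1. Fen1, the flap nuclease, and Rpa2, of the single-strand binding protein, had -0.45 ± 0.29 and -0.59 ± 0.50, with overlap. A dimmer probe set of Fen1, which read 2.99 to 3.81, gave -0.19.

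Of the leading-strand polymerase epsilon, the catalytic subunit Pole read 4.43, 4.79 and 4.62 in treated and 5.99, 5.06 and 4.92 in untreated samples. Its groups did not overlap, and the log2 fold change was -0.71 ± 0.35 (SE). A dimmer probe set of the gene gave 0.25, but read only 3.06 to 3.58, under the median gene at 4.18. Pole2, an accessory subunit, had -0.65 ± 0.40 with overlap. For polymerase delta, which copies the lagging strand, the groups overlapped in both members, Pold1 and Pold2, and in the other subunits Pold3 (-1.12) and Pold4 (-0.47). Without mTORi-HDL 1 Pold3 had -0.69 and Pold4 had 0.45, so the sign of Pold4 turned. Pold1 read 6.20, 5.63 and 6.20 against 6.06, 5.65 and 5.80, with a log2 fold change of 0.17 ± 0.29 (limma, adjusted p = 0.914). Pold2 had -0.60 ± 0.58, and -0.03 ± 0.43 without mTORi-HDL 1.

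The 3 measured members of the clamp loader, which opens Pcna and sets it on DNA, differed in their overlap. Rfc3 read 5.74, 5.74 and 5.44 in treated and 6.37, 6.01 and 6.15 in untreated samples, with no overlap and a log2 fold change of -0.54 ± 0.26 (SE). Cyclic loess took this to -0.17. Rfc5 had -0.39 ± 0.26, also with no overlap, and -0.27 with cyclic loess. After cyclic loess the groups overlapped in both Rfc3 and Rfc5. Rfc2 read 4.29, 6.42 and 5.95 against 6.12, 6.18 and 5.35, a log2 fold change of -0.33 ± 0.56 that was 0.30 ± 0.33 without mTORi-HDL 1. The large subunit Rfc1, measured but not a member, had -0.87 with overlap, and -0.05 without that array.

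**Figure D3:**
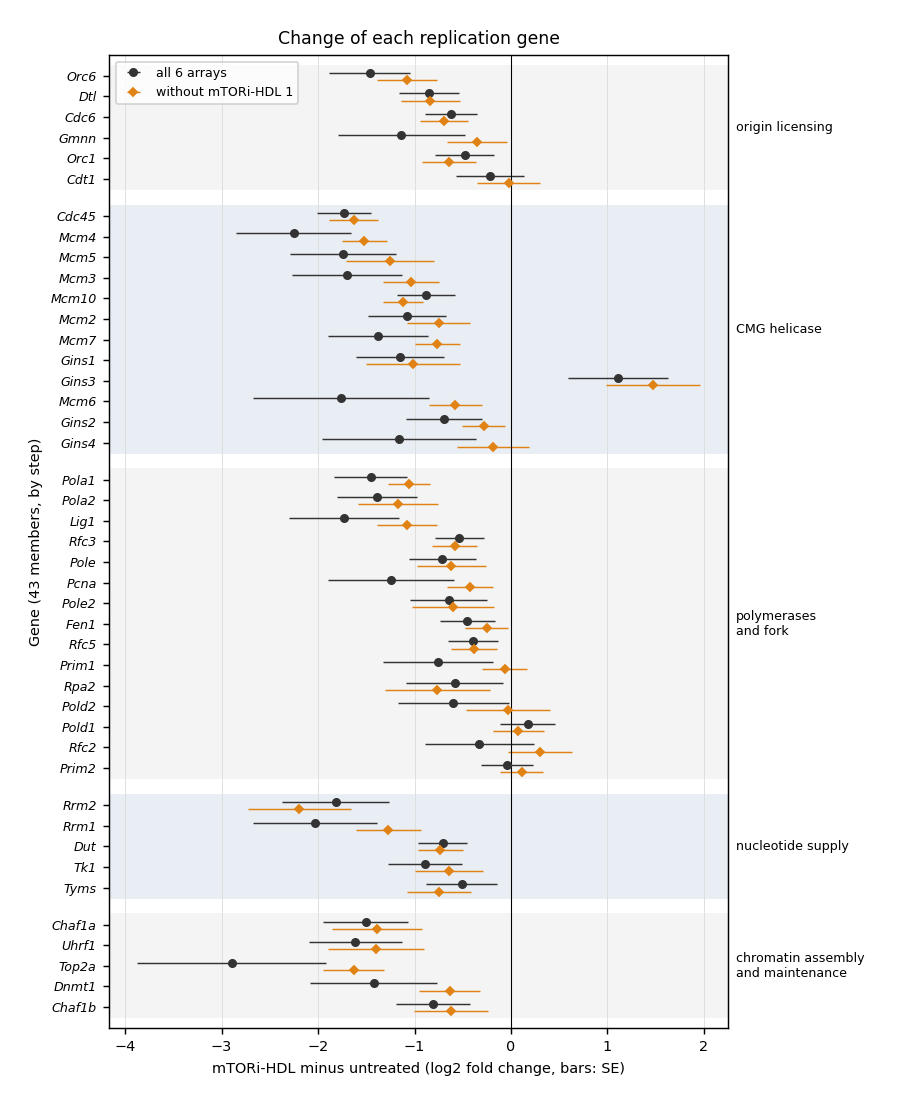
Log2 fold change of each replication gene (x axis, treated minus untreated, bars are SE) over all 6 arrays (circles) and without mTORi-HDL 1 (diamonds), with genes by step (y axis). Without that array the values of Top2a, Mcm6 and Rrm1 lie nearer to 0, at -1.63, -0.58 and -1.27, while those of Cdc45, Dtl and Mcm10 are close to or beyond the values over all arrays.

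Nucleotide supply had a median log2 fold change of -0.89, with 5 of 5 members lower (all genes 41.8%). Of these, 3 had an unadjusted p under 0.05 (all genes 3.07%) and 3 had no overlap (all genes 5.53%). Ribonucleotide reductase, which makes the deoxynucleotides, was lower in mean in both members, Rrm2 and Rrm1, while the alternative small subunit Rrm2b, not a member, had 0.27 with overlap. Rrm2, the subunit made in S phase, read 8.20, 8.005 and 6.13 in treated and 9.38, 8.89 and 9.52 in untreated samples. Rrm1, the large subunit, read 4.26, 6.82 and 6.25 against 7.83, 7.33 and 8.25. The lowest array was mTORi-HDL 3 for Rrm2 and mTORi-HDL 1 for Rrm1, and neither gene overlapped on the values as deposited, while Rrm2 did after cyclic loess. The log2 fold changes were -1.82 ± 0.56 and -2.03 ± 0.65 (SE), and without mTORi-HDL 1 they were -2.19 ± 0.54 and -1.27 ± 0.34. A dimmer probe set of Rrm2 gave -1.76.

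Dut, which removes dUTP and so keeps uracil out of DNA, read 7.57, 7.35 and 7.64 in treated and 8.24, 8.03 and 8.42 in untreated samples. The treated arrays were close together and lay below all untreated ones, with a log2 fold change of -0.71 ± 0.26 (SE; limma, unadjusted p = 0.0265, adjusted p = 0.89). Cyclic loess took this to -0.10, with overlap. A dimmer probe set gave -0.14, but read only 1.86 to 2.40, under the median gene at 4.18. Tk1, thymidine kinase of the salvage pathway, read 3.99, 4.64 and 4.80 against 5.92, 4.78 and 5.39. Tyms, which makes thymidylate afresh, read 6.52, 6.18 and 5.46 against 6.85, 6.11 and 6.73. The groups overlapped in both, with log2 fold changes of -0.89 ± 0.38 and -0.51 ± 0.37, and that of Tyms was -0.03 with cyclic loess.

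Chromatin assembly and maintenance had a median log2 fold change of -1.51, with 5 of 5 members lower (all genes 41.8%). Of these, 3 had an unadjusted p under 0.05 (all genes 3.07%) and 3 had no overlap (all genes 5.53%). Top2a, the topoisomerase that untangles sister chromatids and peaks after S phase, read 3.77, 8.02 and 7.11 in treated and 9.06, 9.14 and 9.39 in untreated samples. The untreated arrays were close together and the treated ones far apart. Its log2 fold change was -2.90 ± 0.98 (SE) over all arrays and -1.63 ± 0.31 without mTORi-HDL 1, where the unadjusted p was 0.00147 and the adjusted p 0.27 (limma). Chaf1a, the large subunit of the histone chaperone CAF-1, read 3.69, 4.43 and 3.67 against 5.12, 4.89 and 6.30, a log2 fold change of -1.51 ± 0.44. Chaf1b, its partner, read 4.43, 4.79 and 5.16 against 5.14, 5.34 and 6.31, with mTORi-HDL 3 just above untreated 1, and had -0.81 ± 0.39.

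Uhrf1 and Dnmt1 copy DNA methylation onto the new strand, the former by binding hemimethylated sites and the latter as the methyltransferase. Uhrf1 read 5.44, 6.95 and 5.21 in treated and 7.64, 7.66 and 7.13 in untreated samples, without overlap, a log2 fold change of -1.61 ± 0.48 (SE). Dnmt1 read 4.95, 6.95 and 7.67 against 8.19, 7.57 and 8.08, with mTORi-HDL 3 above untreated 2. Its log2 fold change of -1.42 ± 0.66 was -0.64 ± 0.32 without mTORi-HDL 1, whereas that of Uhrf1 was -1.40 ± 0.50.

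Other genes of replication that are not among the members pointed the same way in mean. Of 45 measured, 39 were lower (all genes 41.8%) and 6 higher, with a median of -0.90. The lower genes included 13 with an unadjusted p under 0.05 (all genes 3.07%) and 12 with treated below untreated on every array (all genes 5.53%). Without mTORi-HDL 1 there were 33 lower (all genes 53.4%) and 12 higher, and the median was -0.42. The 4 with the smallest p were Dscc1, a part of an alternative clamp loader, Esco2, which ties sister chromatids together, Clspn, claspin of the fork checkpoint, and the histone chaperone Asf1b. Their log2 fold changes were -1.65, -1.28, -1.37 and -1.73 and did not pass (limma, adjusted p = 0.559 to 0.71). Without mTORi-HDL 1 they were -1.65, -1.40, -1.30 and -1.87.

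Regulators of the entry into S phase were mixed. Of 29 measured, 24 were lower (all genes 41.8%), 7 with an unadjusted p under 0.05 (all genes 3.07%), with a median of -0.70. Without mTORi-HDL 1 the median was -0.23, and 18 were lower (all genes 53.4%) and 11 higher. An unadjusted p under 0.05 in limma's test was then reached by 9 lower genes (all genes 3.51%) and 2 higher ones (all genes 3.47%). The 2 higher genes were the cyclin Ccnd1, at 1.59, and the kinase Cdk6, at 0.71. The 4 with the smallest p over all arrays were Tfdp1, the partner of E2F proteins, Cdk2, a kinase that drives S phase, Ccna2, its S-phase cyclin, and Cdkn2c, an inhibitor of Cdk4 and Cdk6. They had log2 fold changes of -2.28, -2.16, -2.42 and -1.34, none past adjustment (limma, adjusted p = 0.696 for all 4). Without mTORi-HDL 1 these were -1.83, -2.15, -1.90 and -1.28. The genes of mitosis, which act after replication, were lower in 25 of 25 (all genes 41.8%), 20 with an unadjusted p under 0.05 (all genes 3.07%). Their median was -1.58 and, without mTORi-HDL 1, -1.46. Kif11, Ube2c, Bub1b and Cenpe had the smallest p, with log2 fold changes of -3.07, -2.24, -2.20 and -2.11 (limma, adjusted p = 0.336 to 0.468). Whether mitosis and replication genes differ was not tested.

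**Figure D4:**
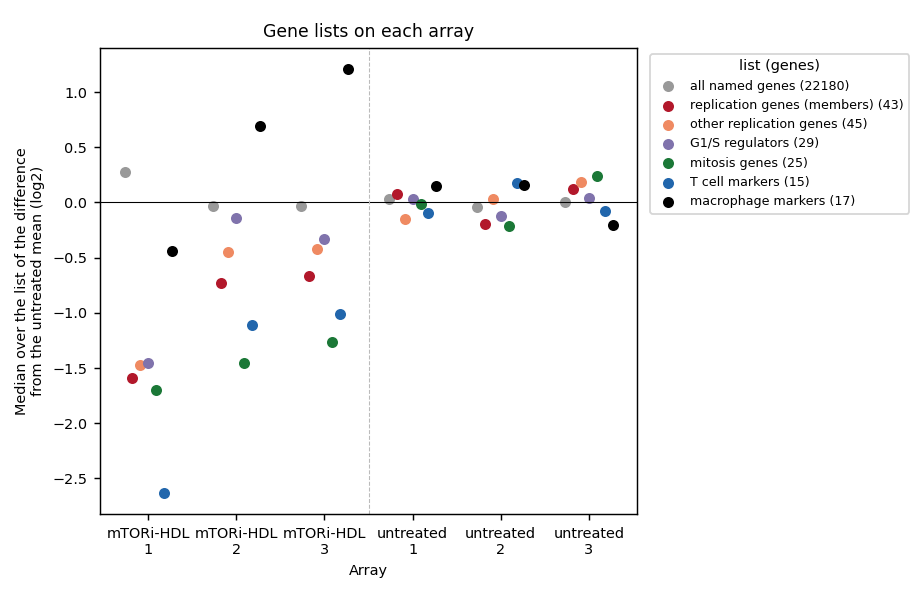
Median log2 difference from the untreated mean (y axis) over the genes of each list on each of the 6 arrays (x axis), with the number of measured genes in the key. Replication genes lie between -1.59 and -0.67 on the treated arrays and mitosis genes between -1.70 and -1.26, T cell markers are also below 0 there, and macrophage markers lie above 0 on mTORi-HDL 2 and 3 and at -0.44 on mTORi-HDL 1.

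Markers of macrophages, the sorted cells, were present on the arrays. Lyz2 and Tyrobp read 10.80 or more on each array, and Csf1r, Cybb, Itgam and Adgre1 read 4.85 to 5.00 on mTORi-HDL 1 and 6.05 to 10.72 on the others. Fcgr1, Fcgr3, C1qb and C1qc were higher on each treated array than on any untreated array, with log2 fold changes from 0.77 for C1qc to 1.84 for Fcgr1. Of the 17 measured macrophage markers 11 were higher in mean (all genes 58.2%) and 4 had no overlap (all genes 5.37%), with a median of 0.35. Without mTORi-HDL 1 there were 16 higher (all genes 46.6%) and 12 with no overlap (all genes 9.75%), with a median of 1.01. The mean level of these markers was 7.06 to 9.33 on treated and 7.74 to 8.18 on untreated arrays. T cell markers were also present, and lower after treatment in 15 of the 15 measured (all genes 41.8%), 11 of them with no overlap (all genes 5.53%). Their mean level was 6.65 to 8.21 on treated and 9.08 to 9.36 on untreated arrays. It lay above that of the macrophage markers on each untreated array and below it on each treated array. The 2 lists hold different genes on different probe sets, so their levels do not rank the cell types by amount. Cd3e, which belongs to the receptor complex of T cells, read 6.46, 9.67 and 9.63 against 10.85, 10.37 and 10.50. The mean level of the 43 replication genes was 4.86 to 5.89 on treated and 6.35 to 6.64 on untreated arrays. The median T cell marker lay below its untreated mean on all 3 treated arrays, as the median replication gene did. So did the median NK and cytotoxic cell marker, at -1.34, -0.15 and -0.43 on mTORi-HDL 1 to 3. The median B cell marker lay at -0.99, -0.17 and -0.74. For these 2 lists untreated arrays reached -0.26 and -0.24, which is below the values on mTORi-HDL 2. The part of the T cell markers in the result was not tested.

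Of the other cell types that the sort could hold, NK and cytotoxic cell markers had a median log2 fold change of -0.39 over 12 genes and B cell markers one of -0.81 over 8. Fibroblast and mural cell markers had 0.50 over 10 genes, neutrophil markers 0.34 over 10, cardiomyocyte markers 0.34 over 10, dendritic cell markers 0.18 over 9 and endothelial markers 0.17 over 8. Without mTORi-HDL 1 the values were -0.39, -0.46, 0.42, -0.02, 0.11, 0.44 and 0.11 in that order. Their part in the levels of the replication genes was not tested either.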

How the data were processed

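Gene expression was measured on 6 arrays, 3 of each group, after amplification of 15 ng of RNA per the labels. The authors deposited log2 values of 41345 probe sets, for which the submitters' processing notes name RMA and Affymetrix Expression Console. The sources used here do not give versions, genome build or probe set filters. Of the probe sets 23521 had 1 gene symbol in the platform annotation, 1814 several and 16010 none. Those with 1 symbol entered, with the brightest probe set standing for each gene, which gave 22180 genes, and no filter or further normalization was applied. Groups, taken from the sample titles, were compared in R 4.3.3 by limma 3.58.1 (eBayes after lmFit, 4 residual degrees of freedom, Benjamini-Hochberg over all genes, two-sided). The fit was tested on simulated data with equal noise on every array, which held no odd array such as mTORi-HDL 1. The members and gene lists were chosen with earlier results of these data known, so counts and medians over lists carry no test. Members named with a value on every array were up to 5 per step with the smallest p and those with an upward change, over all arrays or without mTORi-HDL 1. For a few others single values are given, chosen after they were seen. Of the other lists, up to 4 genes with the smallest p are named. The macrophage markers, Cd3e, Ccnd1, Cdk6, Rfc1, Pold3, Pold4 and Rrm2b were chosen after their values were seen. Promoter windows came from RefSeq tables. Alternatives were other normalizations, filters, variance models, array weights, a replicate block, averaged probe sets, other thresholds, and each array left out. Planned protein motifs were not analysed here.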

Additional observations from a re-analysis of the deposited data

How the results depend on the processing

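Of the 43 members 39 were lower both with all arrays and without mTORi-HDL 1, and the members past the threshold numbered 0 in each alternative run. The count of all genes past it was 1, H2bc12, with array weights and 1 at an adjusted p of 0.2. Deviations of same-numbered arrays from their group means correlated at 0.14, 0.13 and -0.02. Treated 1 and treated 2 correlated best with the untreated array of the same number, and treated 3 with untreated 2 (r = 0.13). With 3 arrays per group and mTORi-HDL 1 far from the others, these values cannot decide whether the samples were paired. The replicate block left 0 members past the threshold and the members' median at -0.89. The members' median was -0.71 with cyclic loess, -0.66 with cyclic loess and mTORi-HDL 1 left out, and -0.67 with that array left out and dim genes removed. Leaving out each array in turn gave medians of -1.11 to -0.69 for the members, -0.85 to -0.60 for licensing, -1.65 to -0.89 for the helicase, -0.79 to -0.43 for polymerases and fork, -1.18 to -0.71 for nucleotide supply and -1.76 to -1.36 for chromatin. It gave 11 to 19 members lower with an unadjusted p under 0.05, the fewest without untreated 3, and 26 to 31 with no overlap, while the shares of all genes were 1.93% to 4.46% and 8.6% to 12.5%. The count with no overlap was 25 with all arrays and cannot fall when an array is left out. Cyclic loess gave -0.63 for licensing, -0.38 for polymerases and fork and -1.06 for chromatin, and quantile normalization gave -0.48 for polymerases and fork. Array weights gave -0.93 for the helicase. With mTORi-HDL 1 left out, cyclic loess gave -0.63, -0.86 and -0.46 for licensing, helicase and polymerases, and removing dim genes gave -0.77 and -0.43 for the latter 2. With cyclic loess on all arrays 18 members had no overlap and 17 were lower with an unadjusted p under 0.05, and the genes at that p were 688 lower and 592 higher, against 680 and 349 as deposited. Signs turned for members near 0. Prim2 had 0.029 with cyclic loess, 0.061 with array weights, 0.11 without mTORi-HDL 1 (dim genes kept or removed) and 0.15 with cyclic loess and that array left out. Rfc2 had 0.22 with array weights, 0.30 without mTORi-HDL 1 (dim genes kept or removed) and 0.35 with cyclic loess as well. Pold2 had 0.015 with cyclic loess and 0.0031 with mTORi-HDL 1 left out too. Cdt1 had 0.014 with cyclic loess and mTORi-HDL 1 left out. With each array left out in turn Prim2 ranged from -0.21 to 0.11, Rfc2 from -0.76 to 0.30 and Cdt1 from -0.44 to 0.032, the last without untreated 1. The cause of these moves was not tested. Spread between 6 arrays limits the precision.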
